A study of Sus scrofa with 4 samples.

Results

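The miRNAs described here are miR-10a, miR-10b, miR-99a, miR-99b, miR-100, miR-125a and miR-125b, measured in exosomes of pig umbilical cord blood. They were taken by miRNA number from the deposited tables, any species prefix, end variant or arm. This gave 12 of 664 rows, which summed to 11 of the 425 miRNA names outside rows whose name starts with PC-. Of the 11 names, 7 were the main strand of a member and 4 were minor strands.

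Small RNA was sequenced from exosomes, small membrane vesicles, that had been pelleted from plasma of newborn Yorkshire piglets. Blood came from the umbilical vein, which carries oxygen-rich blood toward the fetus, or from the umbilical artery, which carries blood back to the placenta. The study compared piglets with intrauterine growth restriction (IUGR), a fetal growth that falls short of its potential, with normal littermates. All blood was drawn at birth with EDTA as anticoagulant, and the RNA of 3 normal or 3 IUGR piglets was pooled, giving 1 library for each vessel and condition and 4 in all. The labels name only the vessel of a sample, and which column is IUGR and which normal rests on the column's initial. A difference between an IUGR and a normal library is thus one between single pools, without replication. Whether the vein and artery libraries hold the same piglets is not stated in so many words.

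These are old and closely related miRNA families. The miR-10 genes lie inside the Hox gene clusters, which pattern the body axis, and miR-10 is known from work in zebrafish to act in the growth of blood vessels. The miR-99/100 family represses mTOR, a kinase that drives cell growth, and miR-125, the vertebrate relative of the worm developmental miRNA lin-4, acts in blood stem cells and represses the cell-death factor BAK1. Several members are made from shared transcripts with let-7 miRNAs.

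A miRNA finds its targets mainly through its seed, bases 2 to 8 from the 5′ end. The deposited sequences of the 7 main strands are shown because they define the 3 seed families and because one of them goes against its name. They are written 5′ to 3′ with T for U, as in the tables, and the seed is in capitals.
miR-10a: tACCCTGTagatccgaatttgt
miR-10b: tACCCTGTagaaccgaatttgt
miR-99a: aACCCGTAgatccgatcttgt
miR-99b: cACCCGTAgaaccgaccttgc
miR-100: aACCCGTAgatccgatcttgtgt
miR-125a: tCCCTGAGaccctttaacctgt
miR-125b: tCCCTGAGaccctaacttgtga
Counted from the 5′ end, miR-10b differs from miR-10a by the single substitution T12A. The miR-99b row differs from the miR-99a row by A1C, T11A, T16C and T21C, none of them inside the seed. The miR-125a and miR-125b rows are identical over their first 13 bases and part after them. Outside the members, 1 name, miR-351-5p, carried the miR-125 seed, and none carried the other seeds.

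The row named miR-100 needs care. Its name in the tables records a substitution from the miR-100 sequence, A16T, and an added base at the 3′ end. The sequence it gives is identical to that of the miR-99a row over all 21 bases of the latter and is 2 bases longer. In 3 of the 4 libraries both row counts end in 0.5 read, and their sums are whole. The tables give 1 sequence per row, so whether the row also counts reads with A at position 16 cannot be read from them. Results for miR-99a and miR-100 are therefore given by name, and their levels and several ratios also for both rows together. The fit over all 4 libraries and the search for similar patterns were run by name only.

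In the pig reference Sscrofa11.1 (RefSeq), MIR10A lies between HOXB3 and HOXB5, and MIR10B next to HOXD3. MIR125A, MIRLET7E and MIR99B follow each other, as do MIR125B-1, MIRLET7A-1 and MIR100, and MIR99A is followed by MIRLET7C. These are neighbours by order only, since the tables were made with another build.

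Outside PC- rows the vein libraries held 35317 (normal) and 7175 (IUGR) reads and the artery libraries 7527 (normal) and 12327 (IUGR), and levels below are shares of these reads. PC- rows took from 13.2% of all reads, in normal vein, to 55.8%, in IUGR vein. All 6 listed red-cell miRNAs, miR-451 the most abundant, had reads in every library and together made up 59.9% of normal and 57.1% of IUGR vein reads, and 51.5% of normal and 11.9% of IUGR artery reads. The 4 listed liver miRNAs, with miR-122 the most abundant, also had reads in every library and made up 0.207%, 2.65%, 2.64% and 32.8% in the same order. Of the other lists, the 6 endothelial miRNAs made up 1.56 to 5.93% and the 4 myeloid and platelet miRNAs 1.96 to 6.61%, and IUGR artery was the highest library for the former and the lowest for the latter. It was also the highest for the epithelial list and the lowest for the striated muscle and lymphoid lists. The epithelial list held 0.471% there (58 reads), against 0.00849 to 0.0418% in the other libraries (3 reads each). For the smooth muscle and mesenchymal list IUGR vein was the highest, at 5.67%, and IUGR artery held 3.86%. In percent of reads, IUGR artery thus stood apart most in its red-cell and liver lists. Sums over a list do not show whether its miRNAs differed in the same direction. All intervals are exact 95% binomial (Clopper-Pearson) intervals. They cover counting error alone, and PCR copies of one molecule could not be told from separate molecules.

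Together the members took 2.66% of normal vein reads (941 reads) and 3.16% of IUGR vein reads (227). In artery they took 3.67% of normal (276) and 4.26% of IUGR reads (525). The miR-99/100 family was the largest of the 3 in every library but normal artery, where miR-125 was. The miR-10 family was the smallest in every library, from 0.546% in normal vein to 0.154% in IUGR artery. In such samples fewer vesicles from a cell type and less of a miRNA per vesicle cannot be told apart.

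**Figure D1:**
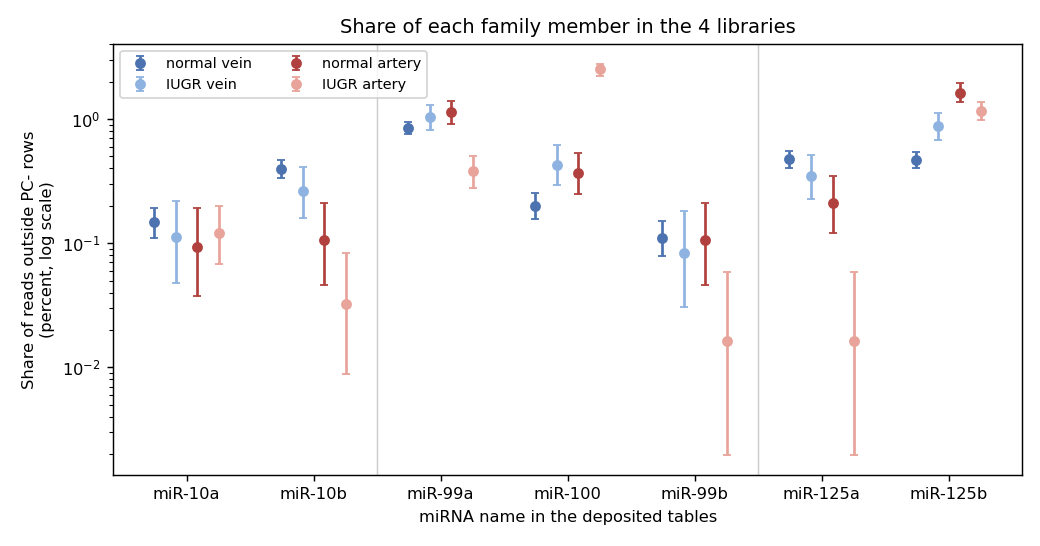
Share of reads outside PC- rows (percent, log axis) for the main strand of each member in the 4 libraries. Points are shares, bars are exact 95% counting intervals, and each point is 1 pooled library. miR-100 reaches 2.51% in IUGR artery, where miR-99b and miR-125a are at 0.0162% each.

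The miR-125 family differed in makeup between all 4 libraries. miR-125b made up 0.470% of normal (166 reads) and 0.878% of IUGR vein reads (63), and 1.63% of normal (123) and 1.16% of IUGR artery reads (143). Both artery libraries were above both vein libraries, though the intervals of IUGR vein (0.675 to 1.12%) and IUGR artery (0.979 to 1.37%) overlapped. miR-125a made up 0.476% of normal (168 reads) and 0.348% of IUGR vein reads (25), and 0.213% of normal (16) and 0.0162% of IUGR artery reads (2). Both artery libraries were below both vein libraries. The intervals of neighbouring libraries in that order overlapped for normal vein and IUGR vein and for IUGR vein and normal artery, while that of IUGR artery, 0.00196 to 0.0586%, lay below all others.

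Within the family, a ratio that does not depend on the total reads, miR-125b accounted for 49.7% of miR-125 reads in normal vein (interval 44.2 to 55.2%). The share was 71.6% for IUGR vein (61.0 to 80.7%), 88.5% for normal artery (82.0 to 93.3%) and 98.6% for IUGR artery (95.1 to 99.8%). None of these 4 intervals overlapped another. The same order was that of falling red-cell share, and the part of the cell sources in it was not tested.

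The miR-10 family was mostly miR-10b in vein and mostly miR-10a in IUGR artery. miR-10b made up 0.399% of normal (141 reads) and 0.265% of IUGR vein reads (19), and 0.106% of normal (8) and 0.0324% of IUGR artery reads (4). Both vein libraries were above both artery libraries, though the intervals of IUGR vein and normal artery overlapped. miR-10a, which differs from it by 1 base, ranged only from 0.0930% in normal artery (7 reads) to 0.147% in normal vein (52), with overlapping intervals in all 4 libraries. Of miR-10 reads, miR-10b was 73.1% for normal vein (66.2 to 79.2%) and 70.4% for IUGR vein (49.8 to 86.2%). In artery it was 53.3% for normal (26.6 to 78.7%) and 21.1% for IUGR (6.05 to 45.6%). The intervals of IUGR artery and of both vein libraries did not overlap, and that of normal artery overlapped all others.

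**Figure D2:**
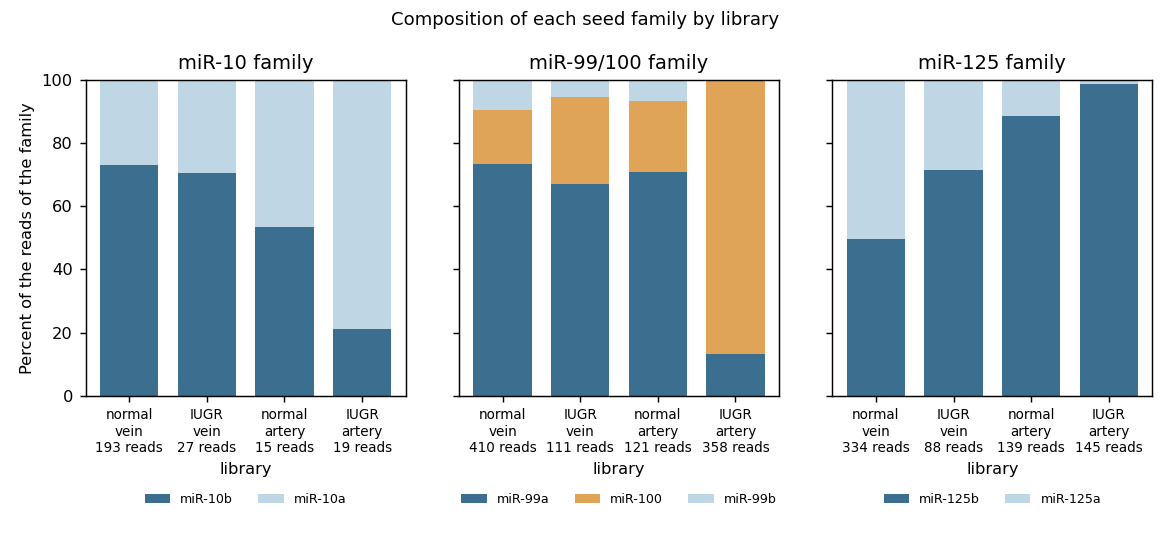
Makeup of each seed family in each library, as percent of the family's main-strand reads, with the number of reads under each bar. miR-125b is 49.7% of its family in normal vein and 98.6% in IUGR artery, and the row named miR-100 makes up 86.3% of its family in IUGR artery against 17.2 to 27.5% elsewhere.

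In the miR-99/100 family the makeup of IUGR artery differed from that of all other libraries. By name, miR-99a made up 0.851% of normal (300.5 reads) and 1.04% of IUGR vein reads (74.5), and 1.14% of normal (85.5) and 0.381% of IUGR artery reads (47). The row named miR-100 made up 0.200% of normal (70.5 reads) and 0.425% of IUGR vein reads (30.5), and 0.365% of normal (27.5) and 2.51% of IUGR artery reads (309). IUGR artery was thus the lowest library for one row and the highest for the other, with intervals clear of the other 3 in both.

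Of the reads of the 2 rows together, the longer one, named miR-100, held 19.0% (normal) and 29.0% (IUGR) in vein, and 24.3% (normal) and 86.8% (IUGR, interval 82.8 to 90.1%) in artery. Summed, the rows made up 1.05%, 1.46%, 1.501% and 2.89% of reads in the same order. The mean length of miRNA rows, weighted by reads, was 21.4 to 21.6 bases in the first 3 libraries and 21.9 in IUGR artery, and rows of at least 22 bases held 41.6 to 49.5% of reads in those 3 and 72.9% in IUGR artery. The part of read length in the miR-100 result was not tested.

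miR-99b, the member made beside miR-125a, was the least abundant main strand of its family. It made up 0.110% of normal (39 reads) and 0.0836% of IUGR vein reads (6), and 0.106% of normal (8) and 0.0162% of IUGR artery reads (2). The interval of IUGR artery, 0.00196 to 0.0586%, lay below that of normal vein and overlapped those of the others. Together miR-99b and miR-125a had 207 (normal) and 31 (IUGR) reads in vein, and 24 (normal) and 4 (IUGR) in artery. miR-125a was 81.2% and 80.6% of these in vein, and 66.7% and 2 of 4 reads in artery, with overlapping intervals. The interval for IUGR artery ran from 6.76 to 93.2%, so a difference was not detectable at this depth.

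For the other neighbours the ratio differed between libraries. Of the reads of miR-99a and miR-125b, miR-125b was 35.6% (31.2 to 40.1%) for normal and 45.8% (37.2 to 54.3%) for IUGR vein, and 59.0% (51.9 to 65.6%) for normal and 75.3% (68.5 to 81.2%) for IUGR artery. The miR-99a and miR-100 rows summed to 371 (normal) and 105 (IUGR) reads in vein, and 113 (normal) and 356 (IUGR) in artery. miR-125b had 166, 63, 123 and 143 reads in the same order. It outnumbered the summed rows only in normal artery, so the top place of IUGR artery in this ratio rests on counting by name. Against the row named miR-100, miR-125b made up 70.2%, 67.4% and 81.7% in the first 3 and 31.6% in IUGR artery (27.4 to 36.1%). The sequence given for that row begins with that of miR-99a, so whether this ratio concerns the product of MIR100 cannot be told. In other mammals mature miR-125b comes from a gene beside MIR100 and from another beside MIR99A. The gene order used here lists MIR125B-1, beside MIR100, and does not place a miR-125b gene beside MIR99A, so the pairing with miR-99a rests on other species. The reads cannot be assigned to one gene.

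The let-7 miRNAs encoded beside these genes are members of another family and are given for comparison only. let-7a, beside MIR100, made up 0.0896% of normal and 0.296% of IUGR vein reads, and 0.547% of normal and 3.37% of IUGR artery reads. let-7c, beside MIR99A, made up 0.0746%, 0.534%, 0.257% and 0.338% in the same order, and let-7e had at most 4.33 reads in a library.

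Within each library the members were ordered by share. In normal vein miR-99a led, followed by miR-125a, miR-125b and miR-10b with overlapping intervals, then the miR-100 row, miR-10a and miR-99b, each of which overlapped the next. In IUGR vein miR-99a and miR-125b led, with overlapping intervals. In normal artery the same pair led, with miR-125b first and overlapping intervals, and miR-10a was lowest. In IUGR artery the miR-100 row was followed by miR-125b, miR-99a and miR-10a, each with an interval clear of the one before, and then by miR-10b, which overlapped miR-10a, and by miR-99b and miR-125a at the same level. Read shares of different miRNAs of similar length also carry differences in how well each was captured, so these orders are of reads.

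Minor strands were close to absent. Each of miR-99a-3p and the 3′ arm of miR-99b had 1 read, in normal vein. miR-125b-2-3p had 2 reads in normal vein, 1 each in IUGR vein and normal artery, and 0 in IUGR artery. For a count of 0, the limit given is 3 reads of the library's total, in place of the exact interval. Here that limit is a share of 0.0243%, while the exact interval reaches 0.0299%. miR-100-3p had 3 reads in IUGR artery and none elsewhere. The limits there were 0.00849% (normal) and 0.0418% (IUGR) in vein and 0.0399% in normal artery. Exact intervals reached 0.0104%, 0.0514% and 0.0490% in the same order. None of the 4 reached the 10 reads needed for a ratio below.

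The first comparison set IUGR against normal in vein. The members differed little there: of 7 with at least 10 reads over both libraries, 1 was past 2-fold higher in IUGR vein and 0 past 2-fold lower. Of all 142 names measured, 24.6% were past 2-fold higher and 21.8% past 2-fold lower. The higher member was the miR-100 row, 2.13-fold, with a log2 ratio of 1.10 (interval 0.45 to 1.73). Log2 ratios carry a pseudocount of 0.5 read, folds do not. miR-125b was 1.87-fold higher, with a log2 ratio of 0.91 (0.46 to 1.33). miR-99a stood at 0.29, miR-99b at -0.30, miR-10a at -0.33, miR-125a at -0.42 and miR-10b at -0.56, all with intervals that reached across 0.

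The median log2 ratio of the 7 was -0.30, beside 0.12 over all names. These vein values hinge on the PC- rows: divided by all reads, which moved the median of all names to -0.85, the miR-100 row stood at 0.13, miR-125b at -0.06 and miR-99a at -0.68. With the deposited normalized values they stood at 0.11, -0.09 and -0.70, and with TMM scaling miR-99a was at -0.07. miR-10a, miR-10b, miR-99b and miR-125a were then each at least 2-fold lower with all reads or the normalized values, as were 64 and 65 of the 142 names.

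**Figure D3:**
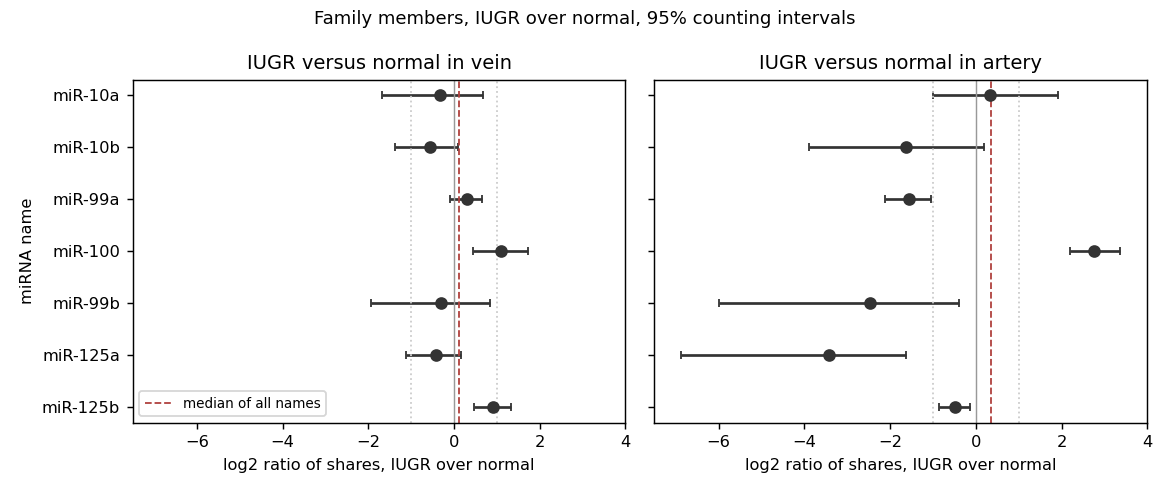
Log2 ratio of shares, IUGR over normal, for the 7 main strands in vein (left) and artery (right). Bars are exact 95% counting intervals, dotted lines mark 2-fold and the dashed line is the median of all names. In vein the points lie between -0.56 and 1.10, in artery between -3.43 and 2.75.

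In artery the members were farther apart, and so were all names. The quartiles of the log2 ratio over all names were -2.13 and 2.34 in artery and -0.79 and 0.97 in vein. Of 7 measured, 4 were lower in IUGR artery by 2-fold or more and 1 was higher by as much, beside 38.3% lower and 40.0% higher of all 120 names measured. miR-125a was 13.1-fold lower, with 2 reads against 16 and a log2 ratio of -3.43 (-6.88 to -1.62). miR-99b was 6.55-fold lower, with 2 reads against 8 and a log2 ratio of -2.48 (-5.98 to -0.39). Both lie in the gene cluster with let-7e.

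miR-10b was 3.28-fold lower in IUGR artery, with 4 reads against 8 and a log2 ratio of -1.63, and its interval of -3.89 to 0.19 held 0. miR-99a was 2.98-fold lower by name, at -1.57 (-2.13 to -1.05), and the miR-100 row was 6.86-fold higher, at 2.75 (2.19 to 3.37). Summed as 1 sequence these rows were higher in IUGR artery, with a log2 ratio of 0.94, so the direction for miR-99a turned with the way the miR-100 row was counted. miR-125b stood at -0.50 (-0.85 to -0.13) and miR-10a at 0.34 (-0.99 to 1.92). The latter turned to -0.07 without the 5 most abundant names in the total, and the others kept their direction in each scaling run.

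The median of the 7 in artery was -1.57, beside 0.36 over all names. In vein the miR-99/100 and miR-125 families each held members on both sides of the all-name median, while both miR-10 members lay below it. In artery both members of miR-10 and of miR-125 lay below the median, and by name the miR-99/100 family lay on both sides. Red-cell and liver miRNAs also differed between these artery libraries, as given above. Taking both lists out of the total shifts every name by the same amount, so the part of the cell sources was not tested by it. The same 5 members were then past 2-fold, 4 lower and 1 higher. Of all 120 names, 49 were lower and 45 higher, and their median was 0.09.

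**Figure D4:**
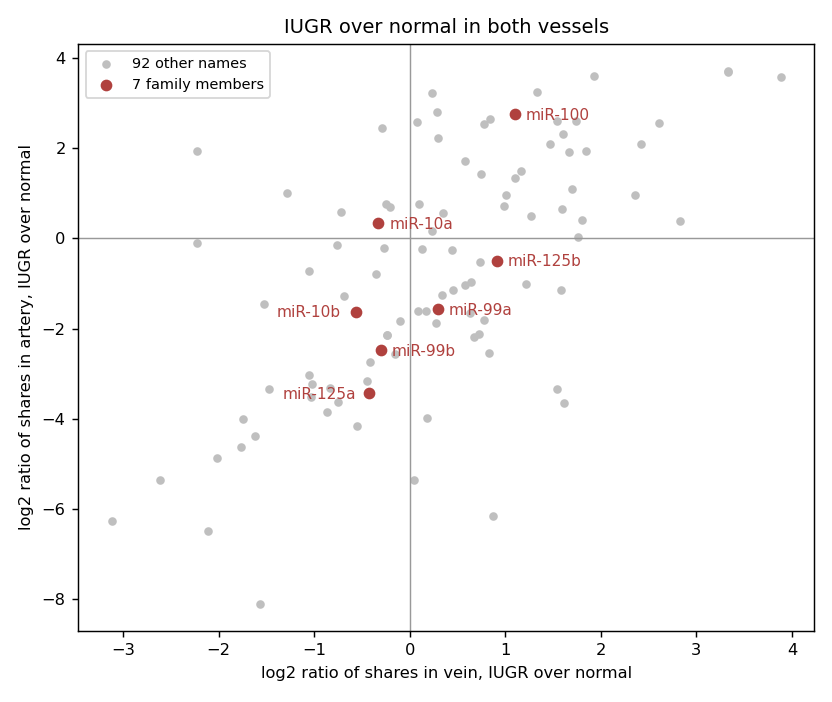
Log2 ratio of shares, IUGR over normal, in vein (x axis) and artery (y axis) for the 99 names with at least 10 reads in both comparisons. Grey points are 92 other names and red points the 7 members, each 1 ratio of 2 pooled libraries. The miR-100 row lies at 1.10 and 2.75, and miR-125a at -0.42 and -3.43.

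The second question is how vein and artery differ. This comparison uses the same 4 libraries as those above. Of the 7 main strands, 1, miR-125b, was higher in both artery libraries than in both vein libraries, and 2, miR-10b and miR-125a, were lower in both. The other 4 overlapped. Among them, miR-99a and the miR-100 row counted as 1 sequence were higher in both artery libraries, at 1.501% (normal) and 2.89% (IUGR). In vein they were at 1.05% (normal) and 1.46% (IUGR), and the intervals of IUGR vein and normal artery overlapped. Of all 139 names tested, 23.7% were higher in both artery libraries and 16.5% lower in both. For miR-125b the order of the IUGR libraries depended on the total used, as given below.

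In the fit over all 4 libraries (edgeR's quasi-likelihood test with Benjamini-Hochberg adjustment), 0 of 139 names (0%) and thus no member passed an adjusted p of 0.05. At an unadjusted p under 0.05 it gave 18 names, none of them a member, and DESeq2 called 2 names at the same adjusted threshold, also no member. miR-10b had a log2 fold of -2.63, artery over vein (edgeR adjusted p = 0.451). miR-125a had -2.24 (edgeR adjusted p = 0.547) and the miR-100 row 2.03 (edgeR adjusted p = 0.633). miR-125b had 0.82 (edgeR adjusted p = 0.80), and miR-99a, miR-99b and miR-10a had -0.61, -1.06 and -0.57. The p-values measure the spread between 2 libraries per vessel that also differ in condition.

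In normal piglets alone, 3 of 7 members measured were past 2-fold, 1 higher and 2 lower in artery, beside 31.8% higher and 12.2% lower of all 148 names. miR-125b was 3.48-fold higher in artery, with a log2 ratio of 1.80 (1.45 to 2.14). miR-10b was 3.76-fold lower, at -1.83 (-3.15 to -0.89), and miR-125a 2.24-fold lower, at -1.12 (-2.00 to -0.42). The miR-100 row stood at 0.89 and miR-10a at -0.58. The sizes depended on the scaling. With all reads, miR-125b stood at 1.13, miR-10b at -2.49, miR-125a at -1.79 and the miR-100 row at 0.22, and miR-10a was past 2-fold lower, at -1.24. With the normalized values miR-125b stood at 1.20 and with TMM at 1.28, and miR-10a was past 2-fold lower with both. miR-99a stood at 0.42 and miR-99b at 0.01. Both turned negative, to -0.24 and -0.65, when divided by all reads, as they did with the normalized values and TMM, and miR-99b also did with the other totals.

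In IUGR piglets alone, 4 of 6 members measured were past 2-fold, 1 higher and 3 lower in artery, beside 39.7% higher and 36.2% lower of all 116 names. miR-125a was 21.5-fold lower in artery, with 2 reads against 25 and a log2 ratio of -4.13 (-7.55 to -2.42). miR-10b was 8.16-fold lower, at -2.90 (-5.04 to -1.44). miR-99a stood at -1.44 by name (-2.01 to -0.91) and the miR-100 row at 2.54 (2.00 to 3.12), and both rows as 1 sequence at 0.98. With all reads miR-99a stood at -0.97 and was no longer past 2-fold, which left 3 members. Without the 5 most abundant names in the total it stood at -2.08 and the miR-100 row at 1.90. miR-125b stood at 0.40 (-0.04 to 0.85) and miR-10a at 0.09, and both turned negative, to -0.25 and -0.56, without the 5 most abundant names in the total, and to -0.07 and -0.37 without the red-cell and liver lists. With all reads miR-125b stood at 0.86.

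The names with the most similar pattern over the 4 libraries were found by the Euclidean distance of centred log2 shares, among 132 names with at least 20 reads. For miR-10b they were miR-365-3p (distance 0.68), miR-18a-3p (0.94) and miR-335 (0.99). miR-99a was taken for its family by pooled reads, 507.5 against 437.5 for the miR-100 row, while the mean share over the 4 libraries was 0.852% for miR-99a and 0.874% for that row. For miR-99a they were miR-1 (0.43), miR-185 (0.44) and miR-21 (0.47), and for miR-125b miR-23b (0.38), miR-103-3p (0.54) and miR-202-5p (0.67). miR-21, for example, made up 1.17% of normal and 1.99% of IUGR vein reads, and 2.43% of normal and 0.690% of IUGR artery reads. By name miR-99a was also lowest in IUGR artery, at 0.381%. Summed with the miR-100 row it was instead highest there, at 2.89%, and distances were not computed for the summed rows. These distances rest on 4 libraries and are a description.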

How the data were processed

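Per the labels' protocols, total RNA of pooled piglets went into TruSeq small RNA libraries that were sequenced as single 36-base reads. The submitters' processing notes name Sscrofa 10.2 as the build, and neither aligner nor counting method is stated in the labels. The deposited raw columns hold estimated counts, in which reads shared between rows are split. The deposited normalized columns hold a signal equal to these counts times 1 factor per library, from 1.90 to 5.89, and were used only in an alternative.

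The 4 tables were merged on row name and sequence, with 0 for a library in whose tables a row did not appear. End variants were summed by name, a name without an arm joining the arm-named one where they shared 12 bases in a run. Ratios needed 10 reads over 2 libraries, and their exact conditional binomial intervals were made on rounded reads. Vein and artery were compared with edgeR 4.0.16 (TMM, R 4.3.3) on reads rounded to whole numbers, for names with at least 20 reads. DESeq2 1.42.0 was an alternative. The edgeR fit and the ratio intervals were tested on simulated data, and DESeq2 was not. The data simulated for edgeR held no difference between conditions. Named miRNAs are all members, the let-7 neighbours and, for the member of each family with the most reads over all libraries, the 3 names nearest it in pattern. A marker list entry without a letter took its lettered copies (miR-194a and miR-194b for miR-194). The members and lists were chosen with earlier results of these data known. Sequences are those of the deposited rows, and gene order is from RefSeq.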

Additional observations from a re-analysis of the deposited data

Results flagged for a closer look

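miR-125b was higher in IUGR than in normal vein, with a log2 ratio of 0.91, and lower in IUGR than in normal artery, at -0.50. It is listed because its counting intervals lay on opposite sides of 0 in the 2 vessels, and the difference itself was not tested. The vein value was -0.06 when divided by all reads.

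miR-99a was higher in artery than in vein in normal piglets, with a log2 ratio of 0.42, and lower in artery in IUGR piglets, at -1.44. It is listed for the same reason, and the difference was not tested. The first value was -0.24 when divided by all reads, and the second 0.98 with the miR-100 row counted as the same sequence.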

How the results depend on the processing

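For IUGR against normal in vein, the 1 member past 2-fold became 4 with all reads as the total, 4 with the normalized values, 0 with TMM factors, 2 without a minimum of reads and 0 with the miR-100 row counted as miR-99a. In artery the 5 became 2 with a minimum of 20 reads, which takes out miR-10b, miR-99b and miR-125a, and 3 with the miR-100 row counted as miR-99a. Between the vessels of IUGR piglets the 4 became 7 without a minimum and 2 with that row counted as miR-99a, and in normal piglets the count stayed within 1.5 times in every setting run. That counting turned the log2 ratio of miR-99a to 0.94 between the artery libraries and to 0.98 between the vessels of IUGR piglets, and made miR-99a 90.5% (normal) and 94.6% (IUGR) of its family in vein and 93.4% (normal) and 99.4% (IUGR) in artery. It and the total without red-cell and liver lists were chosen after seeing the data. Divided by all reads, the members took 2.31%, 1.40%, 2.01% and 2.61% in the same order. Of all names, 35 were higher by 2-fold and 31 lower in IUGR vein. These became 10 and 64 with all reads and 27 and 43 with TMM factors. Without a minimum they were 111 and 41 of 349 names, and 34 and 31 of 141 with the miR-100 row counted as miR-99a. In normal piglets 47 higher and 18 lower in artery became 25 and 42 with all reads and 30 and 34 with TMM factors. Between the artery libraries 48 higher and 46 lower of 120 names became 40 and 32 of 96 with a minimum of 20 reads. With that row counted as miR-99a they were 47 and 45 of 119. Between the vessels of IUGR piglets 46 and 42 of 116 became 75 and 132 of 277 without a minimum. Counting that row as miR-99a gave 45 and 41 of 115. The edgeR fit called 0 members in every setting, with DESeq2 and with each library left out (0 to 0), where the lone library of a vessel is assumed to vary like the other vessel's. With the condition as a replicate block it also called 0. The deviations of the 2 libraries of a condition correlated at 0.57, a value that 2 libraries per vessel force to be equal for both conditions, and the block is not a pairing given by the labels. A fit that leaves 1 library in a vessel cannot show the spread between libraries of that vessel, so its unadjusted p-values are not given. Where no construction of a setting shows it, the cause was not tested. Depth limits miR-99b, miR-125a and miR-10b in IUGR artery most, at 2, 2 and 4 reads.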

Other observations

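Among miRNA rows, 9 other pairs had one sequence that begins with all of another and at least 10 reads together in every library. Their longer form's share in IUGR artery was at most 4.86 percentage points above the highest of the other libraries. Apart from miR-107 and miR-103, these pairs lay near an end of the scale in every library. The longer form held at least 87.5% of the reads for miR-18b and miR-18a, and at most 13.95% for the rest. Some pairs share their shorter row, as with miR-486 and let-7b. They are thus a weak comparison for miR-99a and miR-100, and an effect of length across pairs was not tested. For the rows named miR-107 and miR-103, the longer form, miR-103, held 57.1% (normal) and 48.2% (IUGR) of the pair in vein and 51.9% (normal) and 15.8% (IUGR) in artery, the other way round from the pair of miR-99a and miR-100. No PC- row held 12 bases in a run of a member sequence.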
